A study of Mus musculus with 4 samples.

Results

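The 42 genes described here mark endothelial cells, the cells that line blood vessels, and among them the sinusoidal cells of the liver and the capillary cells that other organs carry. They were chosen by name from a list made with earlier results of these data known, their levels by diet and week in these same cells among them, so those values are given as a description, with no test. All 42 were found among the 32285 genes of the deposited gene lists. They were read in the cells that carried at least 3 UMIs (unique molecular identifiers, 1 per captured molecule) of Stab2, Pecam1, Cdh5, Egfl7 and Kdr together and no UMI of the blood cell genes Ptprc and Cd3e. This rule found 3337 endothelial cells among 82905 kept cells. Pecam1, Cdh5, Egfl7 and Kdr are themselves among the 42 genes, so their levels are partly set by the rule.

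Liver non-parenchymal cells of male C57BL/6J mice were sequenced as 4 libraries with 10x 5′ chemistry, 1 each from mice on regular chow and on the FAT-MASH regimen after 12 and 24 weeks. FAT-MASH is a model of fatty liver inflammation with scarring and tumours. From 8 weeks of age its mice ate a Western diet (1.25% cholesterol, 41% sucrose, 21.1% fat), drank water sweetened with 18.9 g/L glucose and 23.1 g/L fructose, and had a low dose of carbon tetrachloride, a liver toxin, injected each week. The chow mice stayed on regular chow, and the effects of diet, sugar water and toxin cannot be told apart. All livers were held on ice overnight, digested with collagenase and DNase, and cleared of most hepatocytes on Percoll and of red cells by lysis, so the share of endothelial cells depends on this preparation. The sources used here do not say how many mice went into a library.

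As background, the sinusoids of the liver are lined by a thin, perforated endothelium without a full basement membrane, which takes up waste from blood through scavenger receptors. The transcription factors encoded by Gata4 and Maf are known to hold this identity. In scarred liver sinusoidal cells are known to lose their pores and to take on features of the closed capillaries of other tissues, such as Cd34, a process called capillarization. Vessel growth is steered by receptors for VEGF (Kdr, Flt1, Flt4) and angiopoietins (Tek), and by secreted factors such as apelin.

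The rule gave 1266 endothelial cells in 12-week chow, 1003 in 12-week MASH, 636 in 24-week chow and 432 in 24-week MASH, with 2600653, 3809442, 1575915 and 2196156 UMIs. The median cell held 1748 UMIs in 12-week chow, 2677 in 12-week MASH, 2000 in 24-week chow and 3304 in 24-week MASH, so a MASH cell could pass the rule with a smaller part of its RNA from endothelial genes. Cells right at the limit of 3 UMIs numbered 123, 65, 43 and 44, and those 1 UMI short of it 151, 108, 163 and 123. The 12-week MASH library was made with another version of the authors' counting software than the other 3, which at 12 weeks cannot be told apart from diet. The summed level of 8 endothelial markers was 8389, 6763, 8162 and 5801 CPM (UMIs of a gene per 1000000 UMIs of the cells) in the 4 libraries in the order above. In all other cells it was 235 to 915, and every one of the 8 was detected in the endothelial cells of each library. Stab2, Pecam1, Cdh5, Egfl7 and Kdr of the rule are among the 8, so these values are partly set by it. Markers of other cells differed by diet inside the endothelial cells. The 6 markers of stellate cells and fibroblasts summed to 338 and 209 CPM in chow and 1425 and 1028 in MASH, where Dcn led with 927 and 648 and Lrat, of quiescent stellate cells, was at 0 in 24-week MASH. The 7 macrophage markers summed to 41.5 and 69.2 CPM in chow, with Clec4f at 0 in both, and to 566 and 483 in MASH. The 4 bile duct markers summed to 178 and 97.7 against 386 and 515 CPM, and the 4 haemoglobin genes to 2830, 7285, 3.17 and 3320 CPM in the 4 libraries. The 4 lymphatic markers summed to 188, 327, 214 and 86.5 CPM in the 4 libraries, the 5 T cell markers to 100.4, 37.3, 107 and 28.2, and the 4 B cell markers to 356, 154, 614 and 283. The part of these cells or of free RNA in the values below was not tested, other than where a value without cells carrying Dcn, Col1a1 or Col3a1 is given. The median share of mitochondrial UMIs was 2.51%, 3.41%, 3.87% and 4.48%. The 3 libraries with matching barcode lists shared 487 to 732 barcodes pairwise, which was 2.44% to 3.96% of a library.

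Each comparison sets 1 library against 1, so there is no replicate check, and no p-value is given. UMIs were summed over the endothelial cells of a library and divided by their total to give CPM, and the 95% intervals cover the counting of UMIs alone, as if each UMI were independent. A gene was called higher or lower in MASH where its ratio to chow was at least 2 or at most 0.5, its interval left out 1 and the pair of libraries held at least 20 UMIs of it. In 12-week MASH 5 members were called higher, where 5.99% of the 11970 genes compared were, and 3 were called lower, where 3.17% were. In 24-week MASH 6 were called higher, against 7.59% of 11228 genes, and 4 lower, against 3.27%. Another 33 members at 12 weeks and 31 at 24 weeks lay between the limits, and Aplnr, the apelin receptor gene, had under 20 UMIs at both weeks. The members' median log2 ratio was -0.32 at 12 weeks and -0.39 at 24 weeks, against -0.05 and 0.04 over all genes. The members were chosen with this contrast known, so nothing is read from how their counts compare with those shares.

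**Figure D1:**
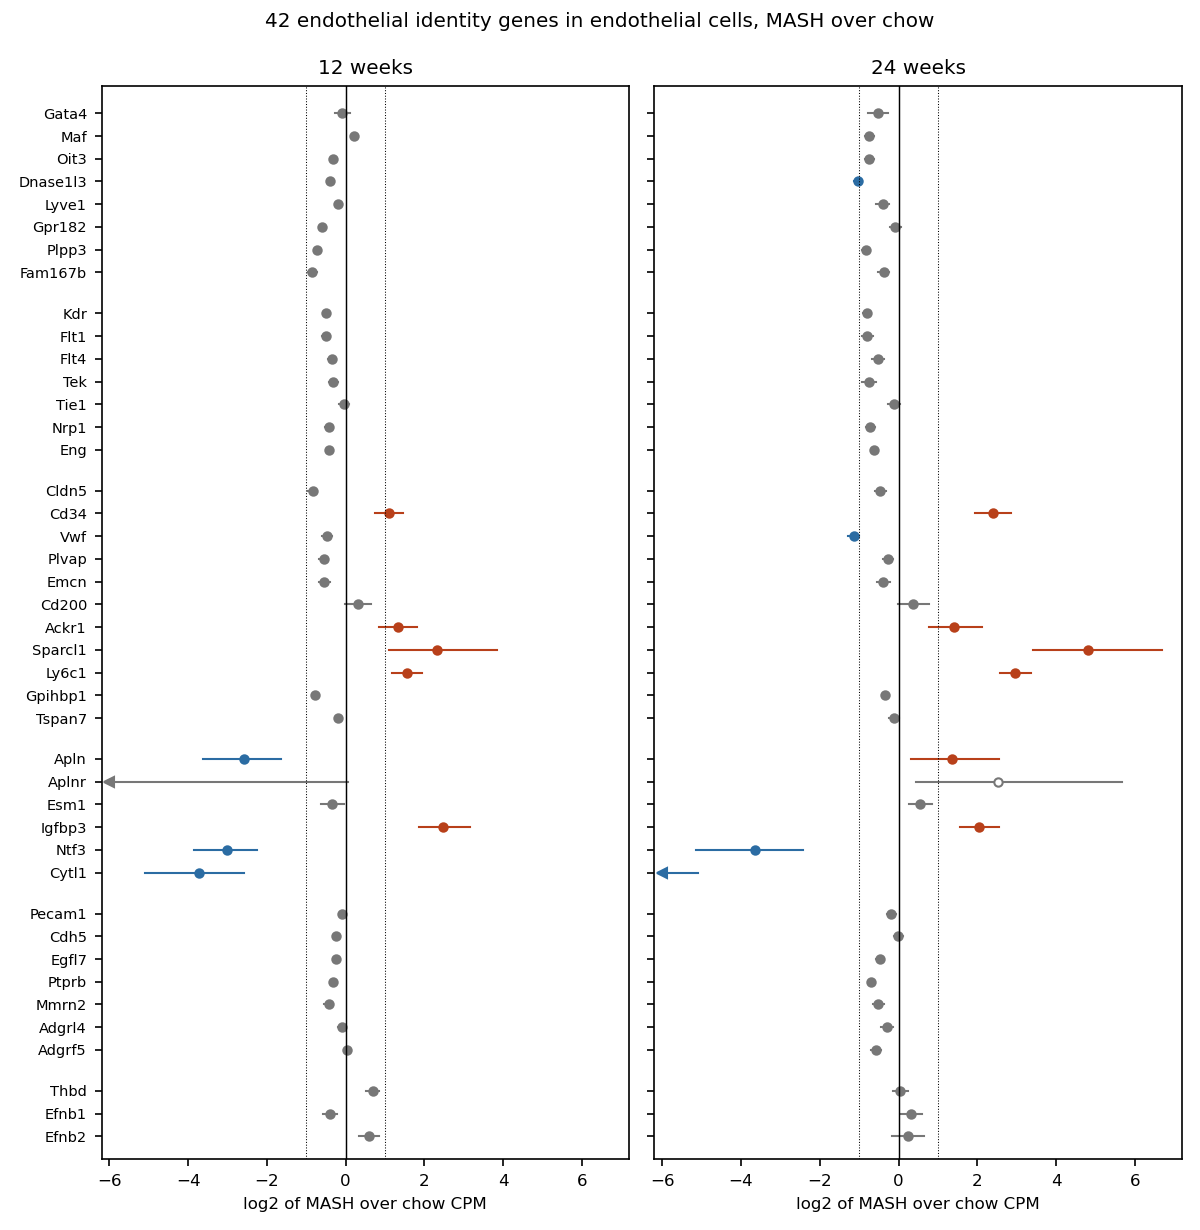
Log2 ratio of MASH over chow CPM (x axis) for the 42 members (y axis, grouped by role) in endothelial cells at 12 weeks (left) and 24 weeks (right). Points are ratios of 1 library to 1 and bars their 95% counting intervals; orange-red is called higher, blue called lower, grey between the dotted 2-fold lines, the open point has under 20 UMIs, and an arrowhead marks a MASH library with 0 UMIs. Cd34, Ackr1, Sparcl1, Ly6c1 and Igfbp3 stand to the right at both weeks and Ntf3 and Cytl1 to the left, while most other members lie just left of 0.

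Cd34, Ackr1, Sparcl1, Ly6c1 and Igfbp3 were called higher at both weeks, as were 3.42% of the 11055 genes that could be compared at both. Ntf3 and Cytl1 were called lower at both, against 0.751% of genes. A larger number of members differed by less than 2-fold. For 21 of the 41 members compared, the whole interval lay below 1 at both weeks, against 4.74% of genes, many of which hold too few UMIs for a narrow interval. For 5 it lay above 1 at both, against 6.12%. Cells were also thinned to 1000 UMIs before the rule was applied (equal depth). There 7 of the 38 members that could still be compared had the whole interval below 1 at both weeks (2.20% of genes) and 7 above (1.82%). Thinning also takes UMIs away, which widens the intervals, so these counts and those at full depth are not alike.

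Promoter sequences of 26 of the 42 members were given, as 31 windows of the 250 bases before a transcript start (RefSeq, GRCm38.p6). They are shown for members called at both weeks whose windows hold next to no exon bases. Of these, 3 were higher and 2 lower in MASH, and their starts are set side by side. Each reads 5′ to 3′ on the strand of its gene. Capitals mark CAGGAA, a longer form of GGAA, the core of a site for ETS factors. It appears as TTCCTG where it lies on the other strand.
Cd34 (chr1:194938571-194938820, plus strand): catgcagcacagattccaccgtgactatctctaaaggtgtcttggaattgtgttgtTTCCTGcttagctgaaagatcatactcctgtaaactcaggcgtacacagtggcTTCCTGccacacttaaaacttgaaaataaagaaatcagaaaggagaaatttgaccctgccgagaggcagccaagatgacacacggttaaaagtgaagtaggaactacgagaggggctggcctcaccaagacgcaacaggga
Igfbp3 (chr11:7213924-7214173, minus strand): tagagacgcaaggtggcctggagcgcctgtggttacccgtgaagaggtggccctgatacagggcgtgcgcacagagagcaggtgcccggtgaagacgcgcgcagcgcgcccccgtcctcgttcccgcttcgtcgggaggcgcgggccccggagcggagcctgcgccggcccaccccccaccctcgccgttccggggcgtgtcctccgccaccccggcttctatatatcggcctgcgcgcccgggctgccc
Ly6c1 (chr15:75048838-75049087, minus strand): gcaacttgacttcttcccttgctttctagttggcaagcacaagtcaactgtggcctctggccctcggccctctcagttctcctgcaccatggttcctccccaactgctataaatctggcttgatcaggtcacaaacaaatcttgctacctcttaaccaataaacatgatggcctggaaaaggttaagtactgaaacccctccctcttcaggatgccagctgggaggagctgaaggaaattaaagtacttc
Ntf3 (chr6:126164961-126165210, minus strand): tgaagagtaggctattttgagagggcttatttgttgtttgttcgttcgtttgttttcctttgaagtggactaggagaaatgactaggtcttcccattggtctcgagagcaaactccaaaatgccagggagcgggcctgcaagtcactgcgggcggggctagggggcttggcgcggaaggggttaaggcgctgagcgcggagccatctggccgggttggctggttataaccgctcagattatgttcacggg
Cytl1 (chr5:37735269-37735518, plus strand): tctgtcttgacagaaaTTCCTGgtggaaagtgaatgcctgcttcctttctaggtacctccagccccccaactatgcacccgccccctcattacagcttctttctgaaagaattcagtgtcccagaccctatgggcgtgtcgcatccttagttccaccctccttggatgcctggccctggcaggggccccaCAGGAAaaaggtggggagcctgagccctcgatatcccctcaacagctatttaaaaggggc
The Cd34 and Cytl1 windows held 2 matches of CAGGAA each and the other 3 none, while GGAA alone was neither marked nor counted. The letters CAGGAA were found on either strand in 14 of the 31 member windows (45.2%), against 25.7% of 32851 windows of this length for all genes. AGATAA or TGATAA, the letters of GATA factors, were in 2 member windows (6.45%) against 16.6%, and TGCTGA, letters found in sites of MAF factors, in 4 (12.9%) against 16.1%. Some members have more than 1 window, and a match is a description of letters, not a bound site.

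All 8 sinusoidal identity genes had ratios below 1 at 24 weeks, for 7 with the whole interval, and 1 was past 2-fold. In the sinusoidal-gated cells described further on, 6 of the 8 were below 1 at 24 weeks, for 5 with the whole interval, and none was called. Dnase1l3, which encodes a secreted DNase that clears DNA of dying cells (ENSMUSG00000025279, chromosome 14, 7964533 to 7994573, minus strand of GRCm38, as are all positions here), was at 1657 CPM in the 12-week chow library, 1259 in 12-week MASH, 1264 in 24-week chow and 621 in 24-week MASH. Its MASH level lay below its chow level at each week, with ratios of 0.760 (0.729 to 0.792) and 0.491 (0.458 to 0.527), and only the later one was called. Plpp3, encoding a phosphatase that breaks down signalling lipids, was at 1491 CPM (chow) and 905 CPM (MASH) after 12 weeks, then 1225 CPM (chow) and 691 CPM (MASH) after 24, again lower in MASH at both weeks. Its ratios were 0.607 (0.579 to 0.635) and 0.564 (0.527 to 0.604), neither past 2-fold. The other 6 genes ranged from 0.555 to 1.15 times chow at 12 weeks, and at 24 weeks from 0.595 to 0.948. Among them Fam167b was at 0.555 and 0.770, the scavenging receptor gene Gpr182 at 0.664 and 0.948, Gata4 at 0.942 and 0.695, Lyve1, a hyaluronan receptor gene, at 0.880 and 0.756, and Oit3 at 0.803 and 0.595 times chow. Maf went from 1.15 (1.09 to 1.22) times chow at 12 weeks to 0.600 (0.553 to 0.650) at 24 weeks.

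At equal depth Dnase1l3 was at 0.842 (0.793 to 0.895) and 0.664 (0.594 to 0.743) times chow, so its 24-week call ended. Plpp3 kept ratios below 1, at 0.704 (0.656 to 0.755) and 0.792 (0.707 to 0.887), while Lyve1 turned to 1.13 (1.04 to 1.24) and 1.36 (1.12 to 1.66). Gpr182 was at 0.777 (0.711 to 0.849) at 12 weeks and turned to 1.30 (1.12 to 1.51) at 24 weeks. The 24-week Dnase1l3 call also ended, at 0.619, with a rule of 6 UMIs in place of 3, and at 0.627 in the sinusoidal-gated cells described further on. Its ratio stayed below 1 under all 16 alternatives at 12 weeks (0.572 to 0.891) and all 20 at 24 weeks (0.384 to 0.665). For this and every other member, the alternatives of the UMI minimum and the fold limit only repeat the reported ratio.

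None of the 7 receptors for vessel growth factors was called. All 7 had ratios below 1 at both weeks, from 0.702 to 0.971 at 12 weeks and from 0.569 to 0.919 at 24 weeks, and for 6 of them (Kdr, Flt1, Flt4, Tek, Nrp1 and Eng) both intervals lay below 1. Eng, which encodes the TGF-beta co-receptor endoglin, was at 1715 CPM in the 12-week chow library, 1282 in 12-week MASH, 1743 in 24-week chow and 1129.7 in 24-week MASH, giving 0.747 (0.717 to 0.778) and 0.648 (0.614 to 0.684) times chow. Kdr, the gene of the main VEGF receptor, was at 1387 CPM (chow) and 981 CPM (MASH) after 12 weeks, then 1436 CPM (chow) and 817 CPM (MASH) after 24, which gave 0.707 (0.675 to 0.740) and 0.569 (0.535 to 0.606). Since Kdr is in the rule, it was also read with a rule of the other gate genes alone, where its ratios were 0.746 and 0.595. At equal depth Kdr was at 0.836 (0.782 to 0.893) and 0.862 (0.780 to 0.952) and Eng at 0.918 (0.860 to 0.980) and 0.872 (0.788 to 0.964). The VEGF receptor genes Flt1 and Flt4 were at 0.702 and 0.785 at 12 weeks and 0.579 and 0.693 at 24 weeks, the angiopoietin receptor gene Tek at 0.807 and 0.596, and Nrp1, a VEGF co-receptor gene, at 0.741 and 0.610. Tie1, a partner of the angiopoietin receptor, differed least, at 0.971 (0.888 to 1.06) and 0.919 (0.824 to 1.02), where both intervals held 1. At equal depth Tie1 lay above 1, at 1.15 (0.996 to 1.33) and 1.40 (1.15 to 1.72), and Flt4 was at 0.952 (0.846 to 1.07) and 1.11 (0.925 to 1.32).

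Genes of the junctions and surface of all endothelial cells differed by similarly small factors. Ptprb, encoding a phosphatase that dampens angiopoietin and junction signalling, was at 2988 CPM in the 12-week chow library, 2386 in 12-week MASH, 2432 in 24-week chow and 1492 in 24-week MASH, or 0.799 (0.775 to 0.823) and 0.613 (0.585 to 0.643) times chow. Egfl7, a secreted matrix protein gene, was at 990.1 CPM (chow) and 839 CPM (MASH) after 12 weeks, then 1380.2 CPM (chow) and 988 CPM (MASH) after 24, with ratios of 0.848 (0.804 to 0.893) and 0.716 (0.674 to 0.760). The other 5 genes ranged from 0.743 to 1.03 times chow at 12 weeks, and at 24 weeks from 0.674 to 0.995, and none of the 7 was called: Mmrn2 was at 0.743 and 0.700, and the adhesion receptor genes Adgrl4 and Adgrf5 at 0.940 and 1.03, then 0.813 and 0.674. Pecam1 and Cdh5, the adhesion genes used most to name endothelial cells, were closest to 1 at 24 weeks, at 0.880 and 0.995. At equal depth Ptprb was at 0.924 (0.879 to 0.972) and 0.867 (0.796 to 0.945). Egfl7 was at 1.05 (0.968 to 1.13) and 0.988 (0.895 to 1.09) there, where both intervals held 1. Others lay above 1: Pecam1 at 1.13 (1.02 to 1.25), Adgrl4 at 1.13 (1.01 to 1.27) and Adgrf5 at 1.15 (1.06 to 1.26) at 12 weeks, and Cdh5 at 1.28 (1.12 to 1.48) at 24 weeks.

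Among the genes of continuous capillaries and larger vessels, 4 of 11 were called higher at both weeks and Vwf was called lower at 24 weeks. Not all are particular to such vessels here. In 12-week chow Gpihbp1 was at 3199 CPM in the sinusoidal-gated cells described further on and 1056 in other endothelial cells, and Tspan7 at 1122 and 448. Vwf, at 338 and 644, went the other way, as did Cd34, Cd200 and Ly6c1. Cd34 encodes a sialomucin found on capillaries and scarce in healthy sinusoids (ENSMUSG00000016494, chromosome 1, 194938819 to 194961279, plus strand). It was at 34.6 CPM in the 12-week chow library, 74.0 in 12-week MASH, 29.8 in 24-week chow and 157 in 24-week MASH, so both MASH libraries lay above both chow libraries. The ratios were 2.14 (1.68 to 2.74) and 5.25 (3.86 to 7.28). The UMIs came from many cells, 63 and 125 with a UMI at 12 weeks and 32 and 136 at 24 weeks, and without the 5 cells richest in Cd34 in each library the ratios were 2.34 and 7.06. Fibroblasts also express Cd34. In cells without a UMI of Dcn, Col1a1 or Col3a1 its ratio was 1.56 at 12 weeks, which ends that call, and 7.07 at 24 weeks. It stayed above 1 under all 16 alternatives at 12 weeks (1.56 to 2.57, with 1.69 at equal depth) and all 20 at 24 weeks (2.61 to 10.9).

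Ackr1 encodes a chemokine-binding receptor of venules (ENSMUSG00000037872, chromosome 1, 173331886 to 173333750, minus strand) and overlaps Cadm3 on the same strand, so reads of the pair may not be told apart. It was at 18.5 CPM (chow) and 46.2 CPM (MASH) after 12 weeks, then 15.9 CPM (chow) and 42.3 CPM (MASH) after 24, with both MASH libraries above both chow libraries. MASH was at 2.50 (1.81 to 3.52) and 2.67 (1.70 to 4.33) times chow, from 110 and 53 cells with a UMI against 41 and 22. In cells with 1 hashtag only (an antibody tag, described with the values by hashtag), the ratios were 1.48 and 0.704, and at 24 weeks 1.13 and 1.47 against chow cells with hashtags 1 to 4 or 5 to 8, which are few (60 and 48 cells).

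Ly6c1 encodes a membrane-anchored protein of capillary endothelium and of some leukocytes (ENSMUSG00000079018, chromosome 15, 75044018 to 75048830, minus strand). Its level was 29.2 CPM in the 12-week chow library, 85.6 in 12-week MASH, 38.1 in 24-week chow and 297 in 24-week MASH, with the highest value in 24-week MASH. The ratios were 2.93 (2.28 to 3.81) and 7.80 (5.98 to 10.3), from 28 and 56 cells with a UMI at 12 weeks and 18 and 99 at 24 weeks. At 12 weeks the ratio turned to 0.914 in cells with 1 hashtag. Its near-identical neighbour Ly6c2 can share reads with it, and the sources used here do not say how such reads were split, so the level is uncertain. Ly6c2 itself was at 27.7 and 32.6 CPM in chow and MASH at 12 weeks, and at 89.5 and 57.4 at 24 weeks, which is not the order of Ly6c1.

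Sparcl1, a matrix protein gene of larger vessels and stroma, rested on very few cells. It was at 2.31 CPM (chow) and 11.6 CPM (MASH) after 12 weeks, then 2.54 CPM (chow) and 71.0 CPM (MASH) after 24, giving 5.01 (2.13 to 14.4) and 28.0 (10.7 to 104) times chow. These UMIs came from 2, 9, 3 and 10 cells in the 4 libraries, and the 5 richest cells held 81.8% or more of them in each, so the counting interval is too narrow. Without those cells 0, 8, 0 and 7 UMIs were left, and in sinusoidal-gated cells the 12-week ratio was 1.84. In cells with 1 hashtag it turned to 0.0777 at 12 weeks.

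Vwf, the gene of von Willebrand factor and a marker of larger vessels, was at 387 CPM in the 12-week chow library, 277 in 12-week MASH, 628 in 24-week chow and 285 in 24-week MASH. Both MASH libraries were below both chow libraries, and the chow libraries themselves differed. The ratios were 0.715 (0.655 to 0.781) and 0.453 (0.410 to 0.502), and only the later was called. That call ended at equal depth, at 0.798 (0.635 to 0.999), and among sinusoidal-gated cells, at 0.650, and the ratio turned to 1.12 against the 60 chow cells with 1 hashtag from hashtags 1 to 4. Gpihbp1, which anchors lipoprotein lipase in capillaries, was at 2859 CPM (chow) and 1680.3 CPM (MASH) after 12 weeks, then 1897 CPM (chow) and 1498 CPM (MASH) after 24, or 0.588 (0.568 to 0.608) and 0.790 (0.751 to 0.830) times chow. Tspan7, a tetraspanin gene, was at 1015 CPM in the 12-week chow library, 893 in 12-week MASH, 618 in 24-week chow and 568 in 24-week MASH, with ratios of 0.880 (0.836 to 0.926) and 0.919 (0.844 to 1.00). The remaining 4 genes were not called: Cldn5, of tight junctions, was at 0.558 and 0.727, Plvap, of the diaphragms that span endothelial pores, at 0.680 and 0.830, Emcn, a surface sialomucin gene, at 0.688 and 0.765, and Cd200 at 1.24 and 1.30. At equal depth Gpihbp1 was at 0.684 (0.650 to 0.720) and 1.00 (0.919 to 1.09), so its 24-week interval held 1. Plvap turned there to 1.25 (1.06 to 1.47) and Tspan7 to 1.17 (1.01 to 1.36) at 24 weeks, and Cd200 was at 0.664 (0.362 to 1.19) and 2.05 (1.04 to 4.11).

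**Figure D2:**
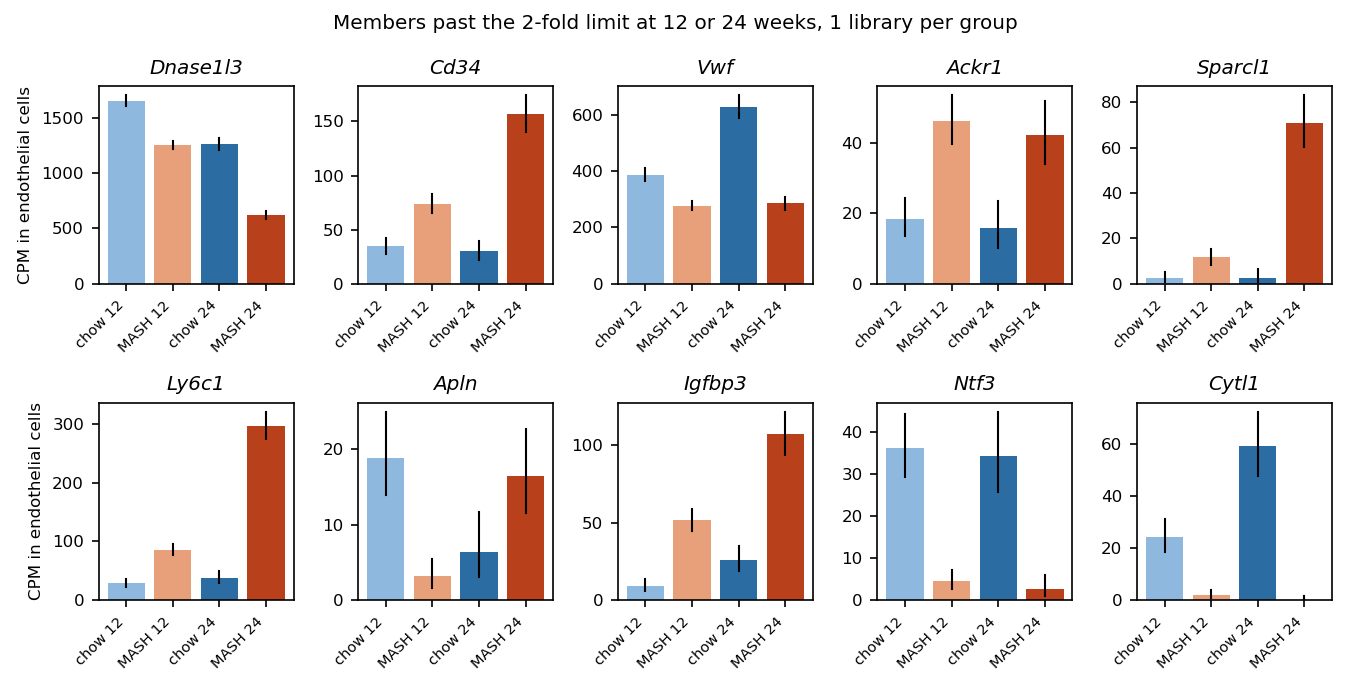
CPM in endothelial cells (y axis) of the 10 members called higher or lower at either week, in each of the 4 libraries (x axis). Bars are the value of 1 library and lines its 95% counting interval; Cd34, Ackr1, Ly6c1 and Igfbp3 are higher in both MASH libraries than in both chow libraries, Ntf3 and Cytl1 lower, and Apln changes order between the weeks.

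The secreted and signalling genes of sprouting held the 2 lowest ratios of the 41 members compared at each week, those of Cytl1 and Ntf3, and also genes that were higher. Ntf3 encodes the growth factor neurotrophin 3 (ENSMUSG00000049107, chromosome 6, 126101412 to 126166910, minus strand). It was at 36.1 CPM (chow) and 4.46 CPM (MASH) after 12 weeks, then 34.3 CPM (chow) and 2.73 CPM (MASH) after 24, so both MASH libraries lay far below both chow libraries. The chow level was 8.10 times the MASH level at 12 weeks (4.799 to 14.5) and 12.5 times at 24 weeks (5.40 to 35.7), and only 16 and 6 cells of MASH had a UMI against 87 and 49 of chow. Among the genes compared, its ratio was number 32 of 11970 from the lowest at 12 weeks and number 27 of 11228 at 24 weeks. The MASH to chow ratio stayed below 0.5 under every alternative run, from 0.0342 to 0.128 at 12 weeks and from 0.0163 to 0.207 at 24 weeks, the last with 0 MASH UMIs set to the floor of 3 counts.

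Cytl1, a cytokine-like secreted protein gene, was at 24.2 CPM in the 12-week chow library, 1.84 in 12-week MASH, 59.0 in 24-week chow and 0 in 24-week MASH. Its ratio was 0.0759 (0.0293 to 0.166) at 12 weeks. At 24 weeks chow was 43.2-fold higher with 0 MASH UMIs set to a floor of 3 counts. By the lower end of its two-sided counting interval it was at least 34.4-fold higher. All of its UMIs lay in 3, 1, 7 and 0 cells of the 4 libraries, so a few cells caught or missed decide this value. After removal of the 5 richest cells 4 chow UMIs were left at 24 weeks and 0 at 12.

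Igfbp3, which encodes a binding protein for insulin-like growth factors (ENSMUSG00000020427, chromosome 11, 7206086 to 7213923, minus strand), was at 9.23 CPM (chow) and 51.5 CPM (MASH) after 12 weeks, then 26.0 CPM (chow) and 107 CPM (MASH) after 24. The MASH level lay above the chow level at each week, with ratios of 5.58 (3.64 to 8.91) and 4.11 (2.94 to 5.88). Cells with a UMI numbered 13, 21, 7 and 25, and the 5 richest held 66.7% to 92.7% of the UMIs. Without them 8 chow and 43 MASH UMIs were left at 12 weeks and 3 and 71 at 24 weeks. The ratios were then 3.68 (1.71 to 9.06) and 17.1 (5.62 to 84.8), which rest on these few chow UMIs. In cells with 1 hashtag the 12-week ratio was 0.907. In the endothelial cells outside the sinusoidal-gated ones described further on, the ratios were 11.8 (4.86 to 37.1) and 1.19 (0.822 to 1.77).

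Apln, the gene of the peptide apelin that tip cells of sprouts secrete, was at 18.8 CPM in the 12-week chow library, 3.15 in 12-week MASH, 6.35 in 24-week chow and 16.4 in 24-week MASH. It was called lower at 12 weeks, at 0.167 (0.0809 to 0.319) times chow, and higher at 24 weeks, at 2.58 (1.26 to 5.84). The chow libraries differed from each other as well, with 49 UMIs at 12 weeks and 10 at 24 weeks, and the direction at either week turned in cells with 1 hashtag (1.55 and 0.528). The 24-week ratio also turned, to 0.729 and 0.758, against either set of chow hashtags. Esm1, another tip cell gene, encoding endocan, was at 74.2 CPM (chow) and 58.8 CPM (MASH) after 12 weeks, then 93.9 CPM (chow) and 137 CPM (MASH) after 24, or 0.792 (0.651 to 0.966) and 1.46 (1.19 to 1.79) times chow, and overlaps the T cell gene Gzmk on the other strand. Over the alternatives the Esm1 ratio lay on both sides of 1 at each week. It ranged from 0.6725 to 1.436 at 12 weeks and from 0.4356 to 2.619 at 24 weeks. Aplnr was seen with 4, 0, 2 and 16 UMIs in the 4 libraries, too few to compare.

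Thrombomodulin and the ephrins stayed between the limits. Thbd, the gene of the anticoagulant surface protein thrombomodulin, was at 178 CPM in the 12-week chow library, 286 in 12-week MASH, 254 in 24-week chow and 262 in 24-week MASH, giving 1.61 (1.44 to 1.80) and 1.03 (0.906 to 1.17) times chow. Efnb1 was at 202 CPM (chow) and 154 CPM (MASH) after 12 weeks, then 113 CPM (chow) and 142 CPM (MASH) after 24, with ratios of 0.761 (0.675 to 0.857) and 1.25 (1.04 to 1.52). Efnb2, the arterial ephrin gene, was at 1.51 (1.26 to 1.81) and 1.17 (0.884 to 1.56). At equal depth Thbd was at 1.83 (1.52 to 2.20) and 1.76 (1.38 to 2.24), Efnb2 at 1.45 (1.06 to 1.99) and 1.996 (1.12 to 3.61), and Efnb1 at 0.768 (0.628 to 0.938) and 1.63 (1.17 to 2.26). In the sinusoidal-gated cells described further on, the 3 genes ranged from 1.38 to 1.61 times chow at 24 weeks. Thbd had its whole interval above 1 at both weeks there. In the other endothelial cells Thbd was called lower at 24 weeks, at 0.276 (0.188 to 0.401).

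**Figure D3:**
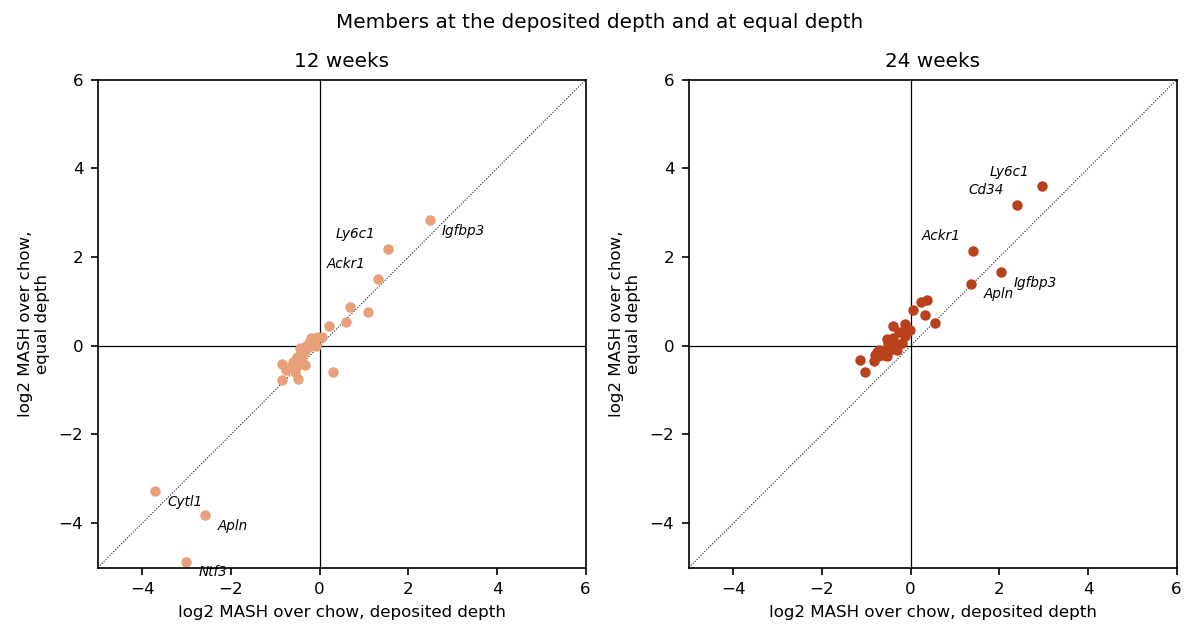
Log2 ratio of MASH over chow CPM at the deposited depth (x axis) and with every cell thinned to 1000 UMIs before the rule (y axis), at 12 weeks (left) and 24 weeks (right); each point is 1 member, and the dotted line marks equal values. Sparcl1 and Aplnr at both weeks and Ntf3 and Cytl1 at 24 weeks are not plotted, since a library had 0 UMIs; the cloud just left of 0 moves up towards 0 or past it, and Cd34, Ackr1 and Ly6c1 stay high at 24 weeks.

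The small, broad difference of most members was seen less at equal depth. There the members' median log2 ratio was -0.06 at 12 weeks and 0.03 at 24 weeks, in place of -0.32 and -0.39. The 7 members whose interval still lay below 1 at both weeks were Dnase1l3, Plpp3, Kdr, Eng, Vwf, Ptprb and Ntf3, and the 7 above were Lyve1, Cd34, Ackr1, Ly6c1, Igfbp3, Thbd and Efnb2. Thinning takes away UMIs of the rule's own genes and of Ptprc and Cd3e as well, and the rule then found 1161, 1028, 657 and 415 cells. With the rule applied at full depth and only the cells thinned afterwards, a Kdr UMI was found in 69.4% (66.5 to 72.1) of chow and 60.7% (57.4 to 63.8) of MASH cells at 12 weeks, and in 66.2% (62.1 to 70.2) and 58.0% (53.0 to 62.8) at 24 weeks.

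Shares of cells with a UMI were compared after this thinning, which left out 191, 75, 82 and 25 shallower cells of the 4 libraries. Cd34 was seen in 2.79% (1.89 to 3.96) of chow and 5.17% (3.84 to 6.80) of MASH cells at 12 weeks, and in 1.99% (0.995 to 3.52) and 13.3% (10.1 to 17.0) at 24 weeks. Before thinning the shares were 4.98%, 12.5%, 5.03% and 31.5%. In T cells, which should lack Cd34 and had median depths of 2729, 3836, 3059 and 3958 UMIs, the thinned shares were 0.148%, 0.185%, 0.0300% and 0.153%. The endothelial shares stood above these in every library. These T cells were chosen to hold no UMI of the rule's genes. T cells with free endothelial RNA were thus partly left out, and the T cell shares of Cd34 and other members may be too low as a background.

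Ackr1 was seen in 1.86% and 4.85% of thinned endothelial cells at 12 weeks and in 1.44% and 5.41% at 24 weeks, against at most 0.0308% of T cells; before thinning it was seen in 3.24%, 10.97%, 3.46% and 12.3% of endothelial cells. Ntf3 went the other way, from 3.35% (2.36 to 4.61) of chow to 0.323% (0.0667 to 0.942) of MASH cells at 12 weeks, and from 3.79% (2.36 to 5.74) to 0 of 407 cells, which allows up to 0.737%, at 24 weeks. Unthinned, its shares were 6.87%, 1.60%, 7.70% and 1.39%. Ly6c1 was seen in 1.40%, 3.56%, 1.62% and 14.3% of thinned cells of the 4 libraries, and unthinned in 2.21%, 5.58%, 2.83% and 22.9%. Its T cell shares were 4.13%, 1.88%, 2.89% and 1.11%. Some T cells express Ly6c1 themselves, so their shares are no measure of free Ly6c1 RNA, and the chow endothelial shares did not exceed them.

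**Figure D4:**
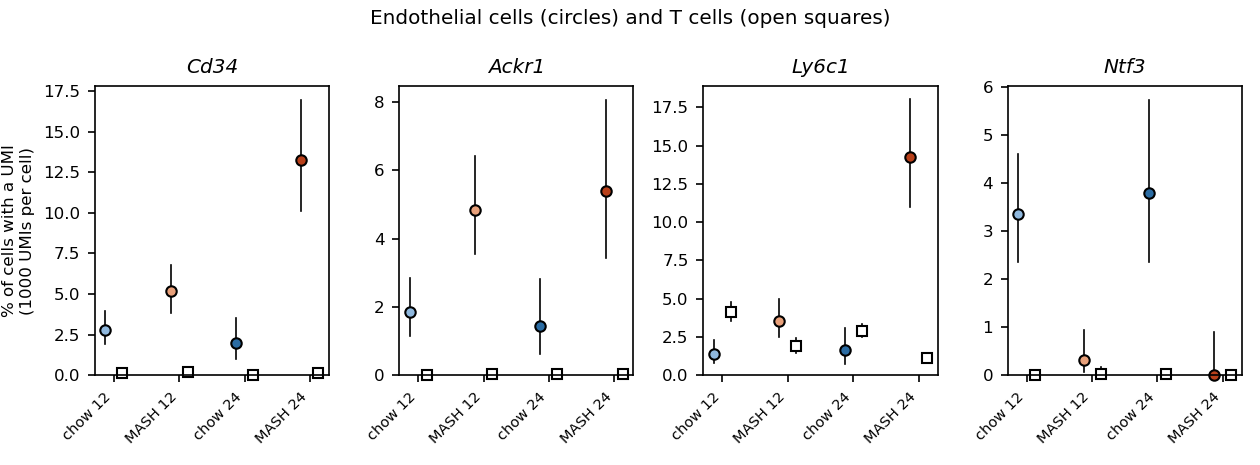
Percent of cells with at least 1 UMI of Cd34, Ackr1, Ly6c1 and Ntf3 (y axis) in each library (x axis), with every cell thinned to 1000 UMIs. Circles are endothelial cells, open squares T cells chosen to hold no UMI of the rule's genes, and lines 95% exact binomial intervals. Cd34 and Ackr1 are above the level of these T cells in every library. Both are higher in MASH, and Ntf3 is lower in MASH.

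Each library also carried hashtags, the counts of antibody tags on each cell. Their meaning is not stated in the sources at hand, so they are no replicates, and their values show only how even a level was within a library. They are given for the 1020, 903, 417 and 344 endothelial cells whose leading hashtag held at least 50% of the cell's hashtag UMIs. This limit was set after a limit of 80%, which left 260, 276, 108 and 118 cells, had been looked at. Hashtags 1 to 3 in chow and 4 to 6 in MASH were in use at 12 weeks, and 1 to 8 in both libraries at 24 weeks. At 12 weeks 5 members had every MASH hashtag above every chow hashtag, as did 8.35% of genes, and 12 had every one below, as did 11.5%. At 24 weeks no member stood wholly above (0.232% of genes), and 6 stood wholly below (0.321%): Oit3, Dnase1l3, Plpp3, Kdr, Nrp1 and Adgrf5.

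Cd34 was at 19.7, 30.7 and 31.7 CPM over the chow hashtags and 67.4, 74.4 and 91.0 over those of MASH at 12 weeks, with no overlap. At 24 weeks it ranged over 13.2 to 62.3 (median 33.7) in chow and 57.0 to 222 (median 127) in MASH, where the ranges met. Ntf3 was at 36.8, 37.7 and 39.5 CPM in chow and 1.51, 5.43 and 11.4 in MASH at 12 weeks, again apart, and at 0 to 67.4 (median 27.4) and 0 to 5.71 (median 3.04) at 24 weeks, where 1 chow hashtag had no UMI. Plpp3 was apart at both weeks, at 1342, 1559 and 1634 CPM in chow against 700.3, 829.7 and 1272 in MASH, and at 955 to 1879 (median 1392) against 508 to 892 (median 659). For Kdr the 12-week ranges overlapped, while at 24 weeks they were 1188 to 1910.1 (median 1556) in chow and 567 to 1135 (median 820.1) in MASH. Ly6c1 varied widely between the hashtags of 24-week MASH, from 23.7 to 738 CPM, and met the chow range of 7.57 to 95.5.

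**Figure D5:**
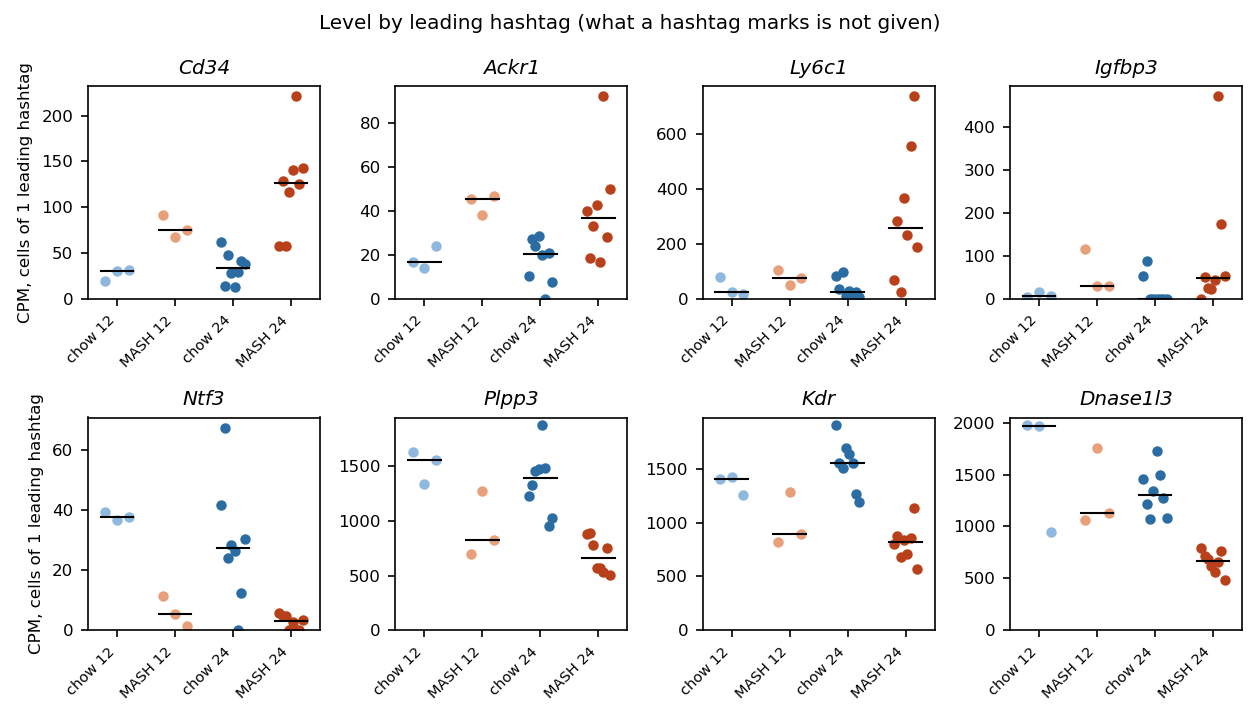
CPM of 8 members (y axis) over the cells of each leading hashtag, by library (x axis). Each point is 1 hashtag, lines are medians over hashtags, and hashtags are not known to be animals; Plpp3 in MASH lies below chow at both weeks, Dnase1l3 and Kdr at 24 weeks, and the spread of Cd34, Ly6c1 and Igfbp3 is widest in 24-week MASH.

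A second cut asked whether the shifts were seen within sinusoidal cells. Endothelial cells with at least 3 UMIs of Clec4g, Fcgr2b and Stab1 together, sinusoidal genes outside both the members and the first rule, made up 82.2% (80.0 to 84.3), 86.2% (84.0 to 88.3), 81.8% (78.5 to 84.7) and 74.5% (70.2 to 78.6) of endothelial cells in the 4 libraries (exact binomial intervals). This limit counts raw UMIs, so a deeper cell passes it more easily. The cells that passed held 1809, 2738, 2072 and 3368 UMIs at the median in the 4 libraries. Clec4g, Fcgr2b and Stab1 also had lower levels in the endothelial cells of MASH at each week, so cells low in them are left out. How far this and depth set the shares and ratios was not tested. Among the sinusoidal-gated cells 3 members were called higher at 12 weeks (5.08% of genes) and 3 lower (2.93%). At 24 weeks 5 were called higher (3.65%) and 2 lower (3.75%). The members' median log2 ratio there was -0.26 at 12 weeks and -0.14 at 24 weeks. Ackr1, Ly6c1 and Igfbp3 were called higher at both weeks (1.52% of genes), and Ntf3 and Cytl1 lower (0.806%). Cd34 was at 32.0 CPM in the 12-week chow library, 59.3 in 12-week MASH, 28.0 in 24-week chow and 159 in 24-week MASH, or 1.85 (1.40 to 2.47) and 5.68 (3.98 to 8.31) times chow. The Ly6c1 ratios were 2.03 (1.49 to 2.81) and 14.1 (9.06 to 23.0), and those of Ntf3 0.106 (0.0540 to 0.190) and 0.0770 (0.0201 to 0.211).

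Dnase1l3 in sinusoidal-gated cells was at 1903 CPM (chow) and 1495 CPM (MASH) after 12 weeks, then 1459 CPM (chow) and 915 CPM (MASH) after 24, with ratios of 0.786 (0.753 to 0.819) and 0.627 (0.584 to 0.673), neither called. Lyve1 in these cells was at 0.999 (0.941 to 1.06) and 1.07 (0.956 to 1.21) times chow. For 17 members both intervals lay below 1 (3.81% of genes), and for 5 both lay above (3.67%). For 7 the intervals lay on opposite sides of 1 at the 2 weeks (Maf, Gpr182, Tspan7, Esm1, Cdh5, Adgrf5 and Efnb1); Gpr182, for example, was at 0.689 (0.650 to 0.732) and 1.23 (1.12 to 1.35). The remaining endothelial cells, 225, 138, 116 and 110 in number, had 17 members called lower at 12 weeks (5.99% of genes) and 4 higher (5.99%), and 23 lower (6.92%) and 5 higher (7.80%) at 24 weeks. These few cells held less endothelial RNA in MASH, with endothelial markers summed to 2997 and 1958 CPM against 5866 and 5225 in chow, and their bile duct markers summed to 975 and 1263 CPM against 409 and 363. Lyve1 had 85 UMIs in those of 24-week chow and 4 in those of 24-week MASH, a ratio of 0.0184 (0.00491 to 0.0489). The values of these few cells describe a mixture, and its part in the 17 and 23 was not tested.

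To see which cells carried the 5 genes higher at both weeks, sinusoidal-gated cells with at least 2 UMIs of them together were set beside cells with none. There were 31 such cells in 12-week chow (2.98%), 88 in MASH (10.2%), 15 in 24-week chow (2.88%) and 88 in MASH (27.3%). In 24-week MASH they held Clec4g at 843 CPM against 1783 in cells with none, Dnase1l3 at 586 against 1133 and Kdr at 842 against 1367. Clec4g is in the sinusoidal limit and Kdr in the first rule, so their presence in both sets is partly set by selection. The cells with at least 2 UMIs also held Dcn at 1056 CPM against 57.9 and Col3a1 at 513 against 17.4. They were deeper, holding 4531.5 UMIs at the median against 2663. The cells were chosen by the genes that differed, so these levels are a description, and the part of fibroblast RNA or doublets in them was not tested.

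Libraries of the same diet differed between the weeks as well. From 12 to 24 weeks of chow 2 members were called higher (3.03% of genes) and 2 lower (2.24%): Igfbp3 and Cytl1 were higher at 24 weeks, and Apln and Lyve1 lower. From 12 to 24 weeks of MASH 6 were called higher (5.71%) and 2 lower (2.47%): Cd34, Sparcl1, Ly6c1, Apln, Esm1 and Igfbp3 were higher, and Dnase1l3 and Lyve1 lower. Lyve1 at 24 weeks was at 0.470 times its 12-week level in chow and 0.404 times in MASH. Age, weeks of diet and library cannot be told apart in these values.

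Each member had a higher CPM in endothelial cells than in all other kept cells in every library, apart from Aplnr and Cytl1, which lay below in 1 library each. For Pecam1, Cdh5, Egfl7 and Kdr this is partly set by the rule. In 12-week chow the gap was small for Ly6c1, at 29.2 against 25.1 CPM, and for Sparcl1, at 2.31 against 1.82. In 24-week MASH Ly6c1 was at 297 against 7.90 CPM. Over all libraries the endothelial level was 3.05 times that of other cells for Cd200, 5.18 for Cd34, 7.88 for Ly6c1, 18.3 for Ptprb, 38.0 for Vwf and 110 for Cytl1, which rests on few cells. The endothelial cells held 8.77% of all UMIs of Cd200, 14.1% of those of Cd34 and 54.5% of those of Vwf. The rule leaves out cells with a Ptprc UMI, so cells with UMIs of both kinds count among the rest: 3446, 3069, 2488 and 1397 cells had the 3 endothelial UMIs before Ptprc and Cd3e were considered.

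Related genes outside the 42 were read from 3 lists. Of 17 further genes of the sinusoidal programme 1 was called higher at 12 weeks and 16 lay between, and at 24 weeks 1 was higher, 3 lower and 13 between, with median log2 ratios of -0.25 and -0.54. The 1 higher at both weeks was Hgf, hepatocyte growth factor, at 18.8 and 57.2 CPM at 12 weeks and 10.8 and 45.1 at 24 weeks (3.04 (2.22 to 4.23) and 4.18 (2.48 to 7.46) times chow), a gene that stellate cells also express. Those lower at 24 weeks were Rspo3, which amplifies Wnt signals to hepatocytes, at 0.423 (0.397 to 0.450) times chow, Bmp6, an iron-sensing signal, at 0.379 (0.292 to 0.487), and Tfec at 0.447 (0.305 to 0.650); they are named here after their values were seen. Rspo3 had been at 1.15 (1.10 to 1.21) at 12 weeks. In sinusoidal-gated cells 1 of the 17 was higher at each week, and 1 was lower at 24 weeks in place of 3.

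Of 22 capillary and angiogenic genes, 1 was higher, 19 lay between and 2 had too few UMIs at 12 weeks, and 5 were higher, 2 lower, 13 between and 2 too low at 24 weeks, with medians of 0.11 and 0.06. Cd36, a fatty acid and thrombospondin receptor gene, was called higher at both weeks, at 201 and 609 CPM and 189 and 386 CPM (3.03 (2.75 to 3.34) and 2.04 (1.79 to 2.34)). The other 4 higher at 24 weeks, also named after their values were seen, were Rgcc at 7.89 (3.99 to 17.8), Vwa1 at 5.50 (1.66 to 28.6), Kcne3 at 3.09 (2.14 to 4.57) and the basement membrane collagen gene Col4a2 at 2.04 (1.82 to 2.29). Lower were the leukocyte adhesion genes Vcam1, at 0.227 (0.197 to 0.261), and Sele, at 0.0765 (0.0319 to 0.159). Of 20 endothelial transcription factors none was called at 12 weeks, and 1 at 24 weeks, the flow-responsive Klf2, at 1630.2 CPM in chow and 756 in MASH (0.464 (0.436 to 0.494)). In sinusoidal-gated cells 2 of the 22 capillary genes were higher and 1 lower at 12 weeks, 2 were higher and 2 lower at 24 weeks, and none of the 20 transcription factors was called at either week, so the Klf2 call ended. The share of all genes called at each week, given above, is the background of these counts.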

How the data were processed

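Single-cell RNA-seq of liver non-parenchymal cells gave 4 libraries, 1 per diet and week. The authors deposited raw UMI counts per gene and cell, and per the file headers they were made with Cell Ranger 5.0.1 in 3 libraries and Cell Ranger 4 in 12-week MASH. The submitters' processing notes name mm10 and GRCh38. The deposited count columns of 12-week MASH did not match their barcode list, so its 19091 columns with at least 500 UMIs were used. Cells with at least 500 gene UMIs, 300 genes and at most 15% mitochondrial UMIs were kept: 18436, 17225, 27291 and 19953 cells in 12-week chow, 12-week MASH, 24-week chow and 24-week MASH, with 52557786, 82606366, 91827150 and 105864367 UMIs. The 42 members, the marker and related gene lists and the rule for naming genes were chosen with earlier results of these data known.

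UMIs were summed per library over endothelial cells. CPM carry exact Poisson intervals and ratios exact conditional binomial intervals, all at 95%. They cover counting error only, and each group holds 1 library, so no test across samples was made. Genes with at least 20 UMIs in a pair of libraries were compared. A floor of 3 counts stands for 0. It equals 1.15, 0.788, 1.90 and 1.37 CPM in the 4 libraries. Values are given in every library for members called at either week and, in each of 6 role groups, for the 2 with the highest mean CPM. Of the related genes the rule names those called the same way at both weeks. Tested on simulated data with 200 genes changed 4-fold, the calls recovered 94.0% of them at 12 weeks (11963 genes) and 93.5% at 24 weeks (11227 genes). The simulated UMIs were independent, as the intervals assume, with no clumping in few cells and no difference between libraries. This recovery therefore checks the computation and is not shown for real counts.

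Scrublet marked 6.40%, 6.78%, 15.4% and 6.48% of endothelial cells as doublets. They were kept, and left out in an alternative. Other alternatives changed the endothelial rule, the cell filters, depth, hashtags, scaling, averaging, the UMI minimum and the fold limit. Those on sinusoidal-gated cells, cells without fibroblast UMIs, leading hashtags of 50% and each gene's 5 richest cells were chosen after seeing the data. T cells for the background shares had at least 2 UMIs of Cd3d, Cd3e, Cd3g and Trac together and none of the endothelial rule's genes. Gene positions are from GENCODE on GRCm38. Python 3.11.15, numpy 2.4.6, pandas 2.3.3, scipy 1.17.1, scanpy 1.11.5 and matplotlib 3.10.9 were used.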

Additional observations from a re-analysis of the deposited data

Results flagged for a closer look

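For 4 members the counting interval lay on one side of 1 at 12 weeks and on the other at 24 weeks. The difference between the weeks was not tested, since each week has 1 library per diet. Maf, the sinusoidal transcription factor gene, was at 1.15 times chow at 12 weeks and 0.600 times at 24 weeks. Apln, the apelin gene, was at 0.167 and 2.58 times chow, from 49 and 12 UMIs in chow and MASH at 12 weeks and 10 and 36 at 24 weeks. Esm1, the endocan gene, was at 0.792 and 1.46 times chow. Over the alternatives its ratio lay on both sides of 1 at each week. It ranged from 0.6725 to 1.436 at 12 weeks and from 0.4356 to 2.619 at 24 weeks. At equal depth it was at 0.736 (0.540 to 0.997) and 1.42 (0.963 to 2.10), so the 24-week interval held 1. Efnb1, an ephrin gene, was at 0.761 and 1.25 times chow. Over the alternatives its ratio stayed below 1 at 12 weeks (0.7315 to 0.8767). At 24 weeks it lay on both sides of 1 (0.7017 to 1.625).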

How the results depend on the processing

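The alternatives numbered 14 to 21 for each member and week. Over them 1015 ratios stayed inside the counting interval of the reported ratio and 490 left it. Another 9, of members called in the reported comparison, turned to the other side of 1. The 1015 include the alternatives of the UMI minimum and the fold limit, which change calls alone and cannot move a ratio. No paired analysis was possible because the labels give the groups no shared replicate numbers, and no test was made across the weeks. The 5 members higher at 12 weeks became 2 in cells with 1 hashtag, 3 in sinusoidal-gated cells and 3 at equal depth. The 3 lower at 12 weeks became 1 at equal depth, 1 among genes with at least 100 UMIs and 8 at a 1.5-fold limit. The 4 lower at 24 weeks became 2 with a rule of 6 UMIs, 2 without cells carrying other cells' markers, 2 in sinusoidal-gated cells, 2 without cells with Dcn, Col1a1 or Col3a1 UMIs, 2 with per-cell averaging and 2 among genes with at least 100 UMIs. They became 1 at equal depth, 13 at a 1.5-fold limit, 15 in cells with 1 hashtag and 7 against 24-week chow cells with 1 hashtag from hashtags 1 to 4. The 6 higher at 24 weeks stayed within 1.5 times that count under every alternative run. At equal depth the median log2 ratio of members, 24 weeks, turned to 0.0325. In cells with 1 hashtag the ratios of Sparcl1 (0.0777), Ly6c1 (0.914) and Igfbp3 (0.907) turned below 1 and that of Apln (1.55) above 1 at 12 weeks, and those of Ackr1 (0.704) and Apln (0.528) below 1 at 24 weeks. Against 24-week chow cells with 1 hashtag, Vwf turned to 1.12 and Apln to 0.729 with hashtags 1 to 4, and Apln to 0.758 with hashtags 5 to 8. These subsets hold few cells (60 and 48 of 24-week chow), and the causes were not tested.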
